A study of Mus musculus with 7 samples.

Results

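The Notch pathway carries signals between touching cells, and 10 of its genes were examined here in sorted mouse mammary cells: the ligand genes Dll1, Dll4, Jag1 and Jag2, the receptor genes Notch1, Notch2, Notch3 and Notch4, and the target genes Hes1 and Hey1. Each gene was read from probe sets that the platform annotation gives to that gene alone, and where a gene had several, the brightest on average across the 7 arrays was used. By this rule 9 of the 10 genes had a value, among 17096 genes in all, and Jag2 was not analysed here because no probe set carries its symbol alone. The values compared were those of adult luminal and adult basal cells.

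By the sample descriptions, total RNA had been amplified and hybridised to Affymetrix mouse arrays, 1 array per sample and 7 arrays in all. Adult luminal cells (2 arrays) were YFP+ cells of K8CREERT2/RosaYFP mice, in which a tamoxifen-dependent Cre is driven by keratin 8. Adult basal cells (2 arrays) were YFP+ cells of K5CREERT2/RosaYFP mice, with Cre driven by keratin 5, and both kinds were collected 8 weeks after tamoxifen. Embryonic cells (3 arrays of 2000, 2000 and 813 cells) were high in CD49f and in Lgr5 reporter signal, from Lgr5-IRES-GFP female embryos at embryonic day 14, with all female embryos of a litter pooled for each array. The YFP label marks cells in which the promoter was active at the time of tamoxifen and their descendants. The tissue label and preparation text of the adult arrays repeat those of the embryonic ones, so the adult preparation, RNA amplification included, is not described. The title of every adult array, and of no embryonic one, carries the mark REANALYSIS. The labels do not say how old the adult mice were or whether adult replicates came from separate animals. The p-values therefore describe the spread among these particular arrays, which may be technical.

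In Notch signalling a membrane-bound ligand of the Delta-like (Dll) or Jagged (Jag) family on a cell binds a Notch receptor on its neighbour. The receptor is then cut by the protease ADAM10 and by gamma-secretase, and its intracellular part enters the nucleus, joins the DNA-binding protein RBPJ and activates genes such as those of the Hes and Hey repressors. In the mammary gland the pathway is known for its part in luminal cell fate, and Dll1 and Jag1 are both known ligands of mammary epithelium.

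Of the 9 Notch genes measured, the ligand genes Dll1 and Jag1 were higher in basal than in luminal cells, and no receptor or target gene passed the test. A gene passed when its Benjamini-Hochberg adjusted p in limma, a linear model fitted over all genes, was under 0.05 and the difference was at least 2-fold. The 2 genes of 9 compare with 1165 of 17096 genes (6.81%) that passed over the whole table. In the basal direction 554 genes passed (3.24%), against 2 of the 9, and in the luminal direction 611 passed (3.57%), against none of the 9. The median log2 difference, luminal minus basal, was -1.65 over the 3 ligand genes, -0.16 over the 6 receptor and target genes and 0.02 over all genes. The ligand median is the value of Jag1 alone. The ligand gene Dll4 and the receptor gene Notch4, counted in these medians, were below background on every array. The number of arrays, 2 against 2, limits the precision of every value below. An exact permutation test of a single gene at this size cannot give a p below 0.333.

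The promoters of the 2 ligand genes that differed are shown because these are the genes that passed the test in the same direction. Each is the stretch of 250 bases before the outermost annotated start of the gene, from RefSeq on build GRCm38.p6, read 5′ to 3′ on the gene's own strand. The Dll1 stretch is chr17:15376933-15377182 on the minus strand and the Jag1 stretch is chr2:137116521-137116770 on the minus strand. Capitals mark E-boxes (CANNTG), the short motif that basic helix-loop-helix factors recognise.
Dll1: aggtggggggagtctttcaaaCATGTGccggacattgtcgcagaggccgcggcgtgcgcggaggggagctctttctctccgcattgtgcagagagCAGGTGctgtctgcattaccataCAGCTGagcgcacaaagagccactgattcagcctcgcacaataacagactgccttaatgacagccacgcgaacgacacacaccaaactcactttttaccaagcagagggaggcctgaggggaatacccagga
Jag1: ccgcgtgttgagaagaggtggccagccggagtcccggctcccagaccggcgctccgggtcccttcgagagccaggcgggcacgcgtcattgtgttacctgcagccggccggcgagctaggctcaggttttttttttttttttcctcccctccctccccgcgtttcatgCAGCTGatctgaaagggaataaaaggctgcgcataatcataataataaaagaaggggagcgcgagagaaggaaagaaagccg
The Dll1 stretch held 3 E-boxes and the Jag1 stretch held 1. An E-box is common, and 66.2% of the 32851 promoter stretches of this length in the RefSeq table held at least 1. Promoters were held for 8 of the 10 genes, all of them ligand or receptor genes, with 9 starts. None was held for the target genes Hes1 and Hey1, so their promoters were not searched. Of the 9 stretches 4 had an E-box. The RBPJ core TGGGAA and the TCF/LEF core ATCAAAG, also searched on both strands, had no match in the 9 stretches. They had a match in 21.6% and 3.21% of all stretches. A match describes letters only, and no match says only that these letters were not in this window.

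Dll1 encodes a Delta-like ligand, and its gene lies at chr17:15367354-15376932. Its log2 intensity was 5.52 and 5.87 in luminal replicates 1 and 2 and 8.06 and 8.13 in basal replicates 1 and 2. Both basal arrays were high, both luminal arrays were low, and the groups lay far apart relative to the spread within either. The log2 difference, luminal minus basal, was -2.40 ± 0.16 (SE, n = 2 and 2 arrays), with a 95% interval from -2.79 to -2.01 and a limma adjusted p of 0.00247. Both luminal values lay below the background level of 5.96, the 95th percentile of log2 intensity over a list of 114 genes typical of organs other than the mammary gland. On intensity alone, basal Dll1 was therefore at least 4.39-fold higher, with the luminal level set at the background. Dll1 has a single probe set, so no other probe set of the table checks this value.

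Jag1 encodes a Jagged ligand, and its gene lies at chr2:137081451-137116520. Its log2 intensity was 8.44 and 8.53 in the luminal arrays and 10.24 and 10.03 in the basal arrays, above background on every array. The difference was -1.65 ± 0.13 (SE, n = 2 and 2 arrays), or 3.14-fold, with a 95% interval from -1.98 to -1.31 and a limma adjusted p of 0.00333. A separate Jag1 probe set, dimmer on every array, read 5.87 and 6.04 in luminal and 7.87 and 7.71 in basal cells. Fitted on its own among all probe sets, it gave a difference of -1.83 ± 0.13 (limma adjusted p = 0.00447). Both Jag1 probe sets placed all basal arrays above all luminal arrays. The dimmer one was at about the background level in the luminal arrays, with replicate 1 below it, so background limits the size of its difference. By the brighter probe set, Jag1 was 231st of 17096 genes in order of basal excess.

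Dll4, the Delta-like ligand best known from blood vessels, was below background on every adult array at both of its probe sets. Its brighter probe set read 4.85 and 5.02 in luminal and 4.98 and 5.03 in basal cells. The dimmer one read 4.19 and 3.98 in luminal and 4.30 and 5.16 in basal cells, with basal replicate 2 the highest. No size of difference is read from either, and the first gave -0.07 ± 0.13 (limma adjusted p = 0.789).

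**Figure D1:**
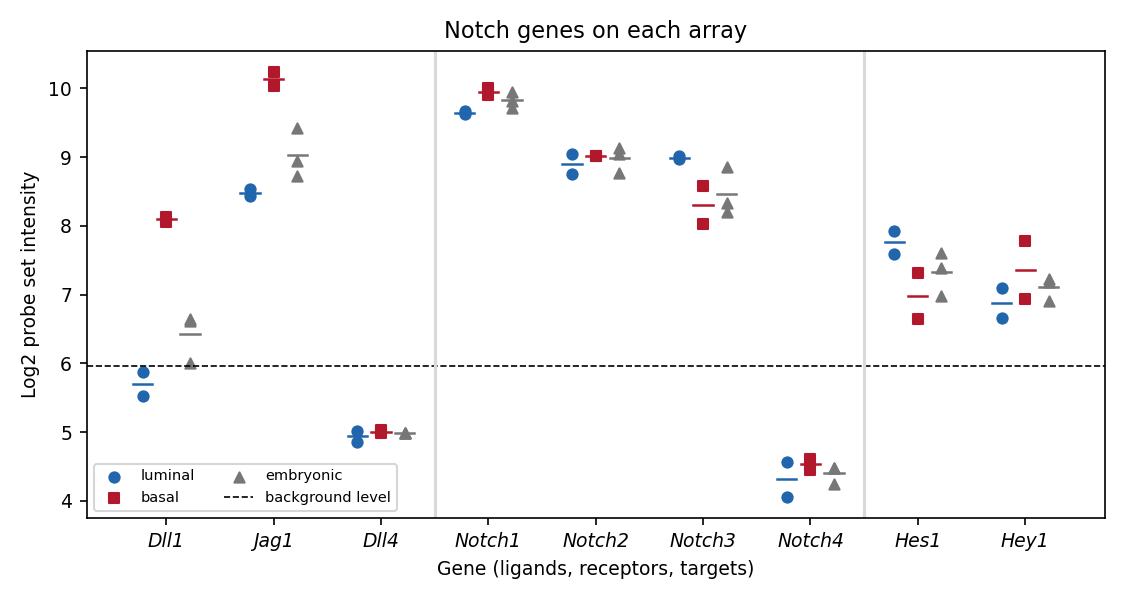
Log2 probe set intensity (vertical axis) of the 9 measured Notch genes on each array: circles are luminal, squares basal and triangles embryonic arrays, short lines are group means, and the dashed line is the background level of 5.96. Dll1 and Jag1 have both basal arrays well above both luminal arrays, while Dll4 and Notch4 lie below the dashed line on every array.

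Among the receptor genes, Notch1, Notch2 and Notch3 were above background on every adult array, and none of the 4 passed the test. Notch1, at chr2:26457902-26503822, read 9.67 and 9.63 in luminal and 9.91 and 10 in basal cells. Its arrays did not overlap, and its difference was -0.30 ± 0.12 (limma adjusted p = 0.153). A dimmer Notch1 probe set read 6.37 and 6.72 in luminal and 6.48 and 6.79 in basal cells, overlapping, with a difference of -0.09 ± 0.18. The probe sets of Notch1 therefore did not give a common separation of the groups.

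Notch2 read 9.04 and 8.76 in luminal and 9.01 and 9.02 in basal cells. The basal values lay between the luminal ones, and the difference was -0.11 ± 0.14 with a 95% interval from -0.46 to 0.24 (limma adjusted p = 0.685). That interval holds no 2-fold difference in either direction. The interval of Notch1 likewise reached no lower than -0.60.

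Notch3 had values toward the luminal side. Its brighter probe set read 8.97 and 9.02 in luminal and 8.03 and 8.58 in basal cells, and the dimmer one 8.00 and 8.07 in luminal and 6.62 and 7.40 in basal cells. At both probe sets the luminal arrays were close to each other and above both basal arrays, and the basal arrays stood apart from each other. The differences were 0.69 ± 0.20 and 1.03 ± 0.26, and neither passed (limma adjusted p = 0.0706 over genes and 0.0684 over probe sets). Without basal replicate 1 the brighter probe set gave 0.42, and without basal replicate 2 it gave 0.97 with a limma adjusted p of 0.0092, still short of 2-fold. Over all alternatives the Notch3 adjusted p in limma ran from 0.0092 to 0.24, and Notch3 passed in none of the 14.

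Notch4, the receptor best known from endothelium, lay below background on every array at its 3 probe sets. The brightest read 4.06 and 4.57 in luminal and 4.45 and 4.61 in basal cells. No difference is read from these values.

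Hes1 and Hey1 encode transcriptional repressors and are common readouts of Notch activity, though other pathways also regulate them. Hes1 read 7.59 and 7.93 in luminal and 6.64 and 7.31 in basal cells. Both luminal arrays were above both basal arrays, and the basal arrays differed from each other by 0.67. The Hes1 difference was 0.78 ± 0.25 with a 95% interval from 0.16 to 1.40 and did not pass (limma adjusted p = 0.0914). It depended on basal replicate 2: without it the difference was 1.12 and passed (limma adjusted p = 0.0116, against 0.0116 to 0.331 over all alternatives). Without basal replicate 1 the Hes1 difference was 0.45.

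Hey1 read 6.66 and 7.09 in luminal and 6.93 and 7.78 in basal cells. The groups overlapped, and basal replicate 2 was the highest array. The difference was -0.48 ± 0.31 with a 95% interval from -1.24 to 0.27 (limma adjusted p = 0.354). It was -0.91 without basal replicate 1 and -0.06 without basal replicate 2. The 2 target genes thus had differences of opposite sign, and neither passed.

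**Figure D2:**
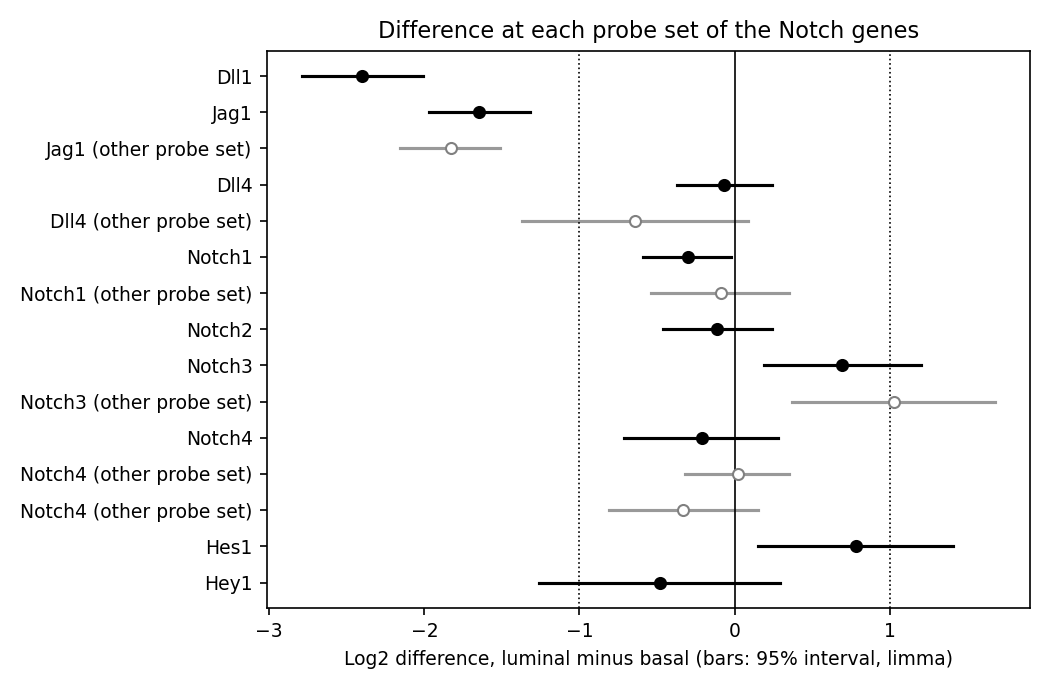
Log2 difference, luminal minus basal (horizontal axis), for each of the 15 probe sets of the measured Notch genes, with 95% intervals from the limma fit over all probe sets. Filled points are the probe set used for the gene, open points its other probe sets, and dotted lines mark 2-fold. The intervals of Dll1 and of both Jag1 probe sets lie wholly beyond the 2-fold line on the basal side.

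Jag1, the ligand gene above background on every adult array, was then set against the receptor and target genes within each array. The luminal minus basal change in the log2 ratio of Jag1 to its partner was -1.35 for Notch1, -1.54 for Notch2 and -2.34 for Notch3. It was -2.43 for Hes1 and -1.16 for Hey1, and the narrowest gap between luminal and basal arrays was 0.46, for Hey1. Jag1 had already passed the test in the basal direction, so these ratios restate its difference beside those of its partners and carry no test. No ratio is given for Dll1, whose luminal values lay below background, or for Dll4 and Notch4, which were below it on every array.

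Among all genes, luminal and basal arrays did not overlap in 59.2% of genes. Of the 9 Notch genes the arrays did not overlap in 5, namely Dll1, Jag1, Notch1, Notch3 and Hes1. That share is near the background, so separation of the arrays alone is not a result about these genes. The size of the Dll1 and Jag1 differences is what placed them apart from the centre of the distribution.

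**Figure D3:**
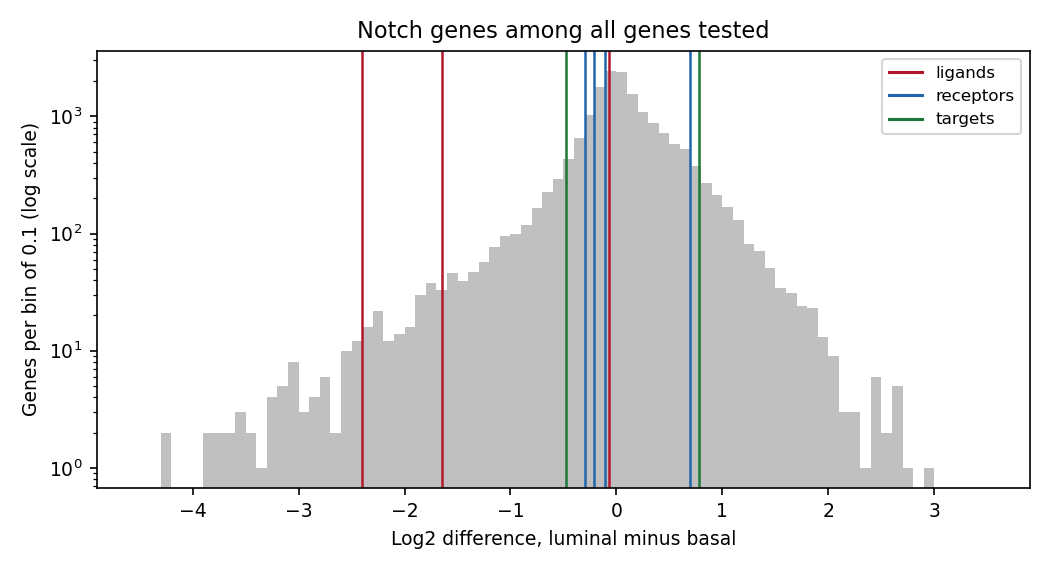
Number of genes (vertical axis, log scale) by log2 difference, luminal minus basal (horizontal axis, bins of 0.1), for all 17096 genes in grey, with vertical lines at the 3 ligand, 4 receptor and 2 target genes. Dll1 at -2.40 and Jag1 at -1.65 lie in the basal tail, and the receptor and target genes lie between -0.48 and 0.78.

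The genes with the most similar pattern were found by the smallest Euclidean distance between gene-centred log2 values over the 4 adult arrays, among 7850 other genes above background. For Dll1 these were Cald1, an actin-binding protein of contractile cells (distance 0.078), Postn, a matrix protein (0.096), Col16a1 (0.119), Phlda3 (0.126) and Lrp1 (0.136). For Jag1 they were Dennd2c (0.108), Btbd11 (0.120), Sdk2 (0.127), Fscn1, an actin-bundling protein (0.164), and Npy (0.192). The Dll1 neighbours had differences from -2.41 to -2.31 and the Jag1 neighbours from -1.77 to -1.56. Postn is also in the fibroblast marker list used below. Likeness over 4 arrays is a description only, and for Dll1 it includes luminal values below background. The neighbours were above background by their mean over the adult arrays. Of the Jag1 neighbours, Dennd2c, Sdk2 and Npy were below background in both luminal arrays.

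Further genes of the pathway were taken from lists of other ligands, glycosylation enzymes, proteases, nuclear factors, targets and turnover genes, 55 in all, of which 48 had a value. Of these 48, 3 passed: Adam10 and Dtx4 were higher in luminal cells and Tle1 was higher in basal cells. This share is close to that of all genes given above (6.81%), and the median difference of the 48 genes was -0.02, against 0.02 for all genes.

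Adam10, the protease that makes the first ligand-induced cut of the receptor, read 10.15 and 10.01 in luminal and 8.72 and 8.76 in basal cells. Both luminal arrays were high and the groups were well separated, with a difference of 1.34 ± 0.12 (limma adjusted p = 0.00418). Its other 2 probe sets gave 1.39 ± 0.20 and 1.38 ± 0.21. With the embryonic arrays in the fit, Adam10 no longer passed (limma adjusted p = 0.0963, the highest of its 13 alternatives, the lowest being 8.90e-04).

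Dtx4, a member of the Deltex family of ubiquitin ligases that act on Notch, read 8.64 and 8.55 in luminal and 6.64 and 7.19 in basal cells. Its difference was 1.68 ± 0.20 (limma adjusted p = 0.00765), and its other probe set gave 1.58 ± 0.18. Tle1, a co-repressor that partners with Hes factors, read 6.10 and 6.63 in luminal and 7.74 and 7.65 in basal cells, with a difference of -1.33 ± 0.20 (limma adjusted p = 0.0124). Without luminal replicate 1 neither passed, with limma adjusted p of 0.0603 for Dtx4 (1.64; 0.00189 to 0.0603 over its alternatives) and 0.0549 for Tle1 (-1.06; 0.00416 to 0.0549).

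Among other ligand genes, none of 4 measured passed: Dlk1, a non-canonical ligand, was closest at -0.97 ± 0.21, short of 2-fold, while Dll3 (0.10) and Dner (-0.11) were below background. Of the 5 glycosylation genes, whose enzymes add sugars to the receptor, none passed. Pofut1 was at 0.07, Poglut1 at -0.24 and Lfng, the Lunatic fringe gene, at -0.40. Poglut1 and Lfng were each above background on only 1 adult array. In the cleavage list 1 of 8 passed, Adam10, and 7 of 8 had values on the luminal side, with a median of 0.50. Over all genes 9217 of 17096 had values on the luminal side, with a median of 0.02. There the protease Adam17 had 0.49 ± 0.19, Furin -0.06 and the gamma-secretase subunit Psen2 0.62 ± 0.24, and none of these passed.

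In the nuclear list 1 of 8 passed, Tle1. Rbpj, the DNA-binding partner of cleaved Notch, had a difference of -0.39 ± 0.19, the co-activator Maml1 -0.17 and Snw1 0.17. Snw1 was above background on only 2 adult arrays. None of the 10 other targets passed, and 5 had differences on the luminal side and 5 on the basal side. Only 3 were above background by their mean over the adult arrays. These were Hes6 (0.72 ± 0.16) on the luminal side and Nrp1 (-0.77 ± 0.25) and Nrarp (-0.52 ± 0.18) on the basal side. Hes5 and Hes7 were below background on every adult array. In the turnover and trafficking list 1 of 13 passed, Dtx4. The Notch inhibitor Numb had -0.35 ± 0.16, its relative Numbl -0.94 ± 0.12 and the ubiquitin ligase Itch 0.50 ± 0.23. Both luminal values of Numbl (5.17 and 5.30) were below background, which limits the size of its difference.

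**Figure D4:**
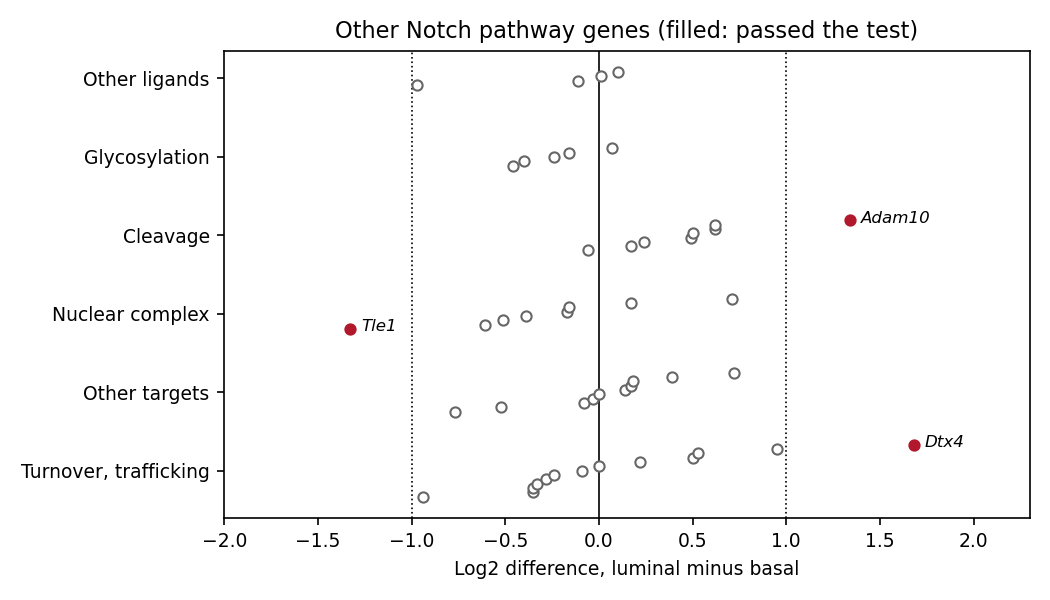
Log2 difference, luminal minus basal (horizontal axis), of the 48 other Notch pathway genes by list, with 1 point per gene and vertical scatter only to separate points. Filled points passed the test (Adam10, Dtx4 and Tle1), and dotted lines mark 2-fold.

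The labels of the adult arrays were checked against lineage markers. Of 9 basal markers 9 passed in the basal direction, including Krt5 (-2.75 ± 0.18) and Krt14 (-2.54 ± 0.13). Of 11 luminal markers 7 passed in the luminal direction and 10 had a positive difference, against 9217 of all 17096 genes. Krt8 (0.40 ± 0.12, limma adjusted p = 0.075) and Krt18 (0.68 ± 0.12) did not reach 2-fold. Gata3 (-0.05), the only one on the basal side, had overlapping groups. Kit, counted among the 7, was below background on every adult array. Bulk arrays cannot tell more cells of a type from more RNA per cell.

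Markers of several other cell types had values on the basal side, as Dll1 and Jag1 did. Of 15 endothelial markers 2 passed and 15 had a negative difference (median -1.16), against 7873 of 17096 over all genes. Pecam1 at -1.63 ± 0.43 and Cdh5 at -1.58 ± 0.49 were not among those that passed. The summed intensity of the 15 markers was 545.9 and 913.7 in the luminal arrays and 1307.4 and 2049.4 in the basal arrays. Tek, Cldn5 and Sox17 were below background on every adult array. Of 7 pericyte markers 1 passed (median -0.62), with sums of 298.5 and 383.7 in luminal and 515.2 and 761.9 in basal arrays. Rgs5 was at -1.22 ± 0.48 and Pdgfrb at -0.80 ± 0.19, and neither passed. Kcnj8, Des and Higd1b were below background on every adult array. Of 12 fibroblast markers 5 passed and 11 had a negative difference (median -1.36), with sums of 3212.4 and 5255.8 in luminal and 8851.2 and 10655.0 in basal arrays. The exception was Dcn (0.05), above background on every adult array and with overlapping groups. Col1a1 was at -1.38 ± 0.56 and did not pass. Col1a2, Pdgfra and Mfap5 were below background on every adult array, and Mfap5 is counted among the 5 that passed. None of 10 leukocyte markers passed (median -0.10), with sums of 332.0 and 534.4 in luminal and 523.0 and 657.1 in basal arrays. Ptprc (-0.09), Cd52, Laptm5, Tyrobp, Cd3e, Coro1a and Csf1r were below background on every adult array, so the median rests largely on such genes. The other 3 leukocyte markers, named after their values were seen, had differences on the basal side: Lyz2 -1.61 ± 0.72, Cd74 -0.80 ± 0.37 and Cd79a -0.27 ± 0.14. The part of such cells in the differences of Dll1 and Jag1 was not tested.

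The replicates differed in these markers in a way that can be set beside each Notch gene. The median of replicate 2 minus replicate 1 was 0.64 in luminal and 0.73 in basal arrays for endothelial markers. It was 0.62 and 0.14 for fibroblast, 0.16 and 0.34 for pericyte and 0.45 and 0.08 for leukocyte markers. Between the same arrays Dll1 differed by 0.35 in luminal and 0.08 in basal cells, and Jag1 by 0.09 and -0.21. Hey1 differed by 0.43 and 0.85, Hes1 by 0.34 and 0.67 and Notch3 by 0.05 and 0.55. Notch1 differed by -0.04 in luminal and 0.09 in basal cells and Notch2 by -0.28 and 0.01. The median was 0.43 and 0.20 for the basal lineage markers, 0.04 and 0.25 for the luminal ones and -0.01 and 0.03 for all genes. These marker medians were above 0, but single markers could go the other way, such as Dcn in luminal arrays (-0.75). Of the Notch values named here, those of Jag1 in basal cells and of Notch1 and Notch2 in luminal cells were below 0. The part of other cell types in the values of these Notch genes was not tested.

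**Figure D5:**
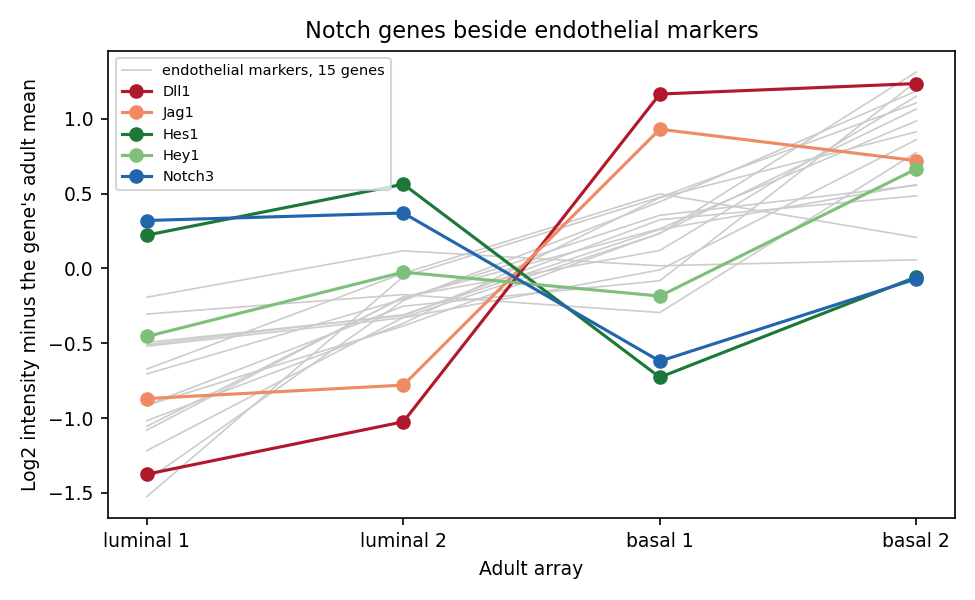
Log2 intensity minus the gene's own mean over the 4 adult arrays (vertical axis) on each adult array, for 5 Notch genes in colour and 15 endothelial markers in grey; lines join the values of a gene and carry no order in time. Dll1 and Jag1 step between lineages with little change between basal replicates, while Hes1, Hey1 and Notch3 also differ between basal replicates 1 and 2. Between luminal replicates (2 minus 1), Dll1 (0.35), Hes1 (0.34) and Hey1 (0.43) differ more than Jag1 (0.09) and Notch3 (0.05).

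The embryonic columns are given as levels only. Values were identical in embryonic replicates 1 and 2 at 16913 of 45033 probe sets (37.6%), against 52 to 94 between pairs of adult arrays, so levels set across the embryonic and adult columns may reflect how the arrays were summarised. Embryonic Dll1 read 6.62, 6.64 and 6.0, between the luminal and basal arrays and overlapping neither. Embryonic Jag1 read 8.94, 9.42 and 8.72, also between them. Notch1 read 9.82, 9.95 and 9.71, Notch2 9.13, 9.05 and 8.77 and Notch3 8.20, 8.33 and 8.86, each overlapping an adult group or lying between the adult groups. Hes1 read 6.98, 7.39 and 7.60 and Hey1 6.90, 7.19 and 7.23, within the range of the adult arrays. Dll4 read 4.98 on all 3 embryonic arrays and Notch4 4.48, 4.48 and 4.25, below background. In order of mean level, Dll1 and Jag1 were highest in basal, then embryonic, then luminal columns. For all 9 genes the embryonic mean lay between the luminal and the basal mean, and it differed from the adult mean by at most 0.47. Over all genes the SD of embryonic minus adult means was 0.10, against 0.55 for luminal minus basal. Embryonic means thus lay close to adult means over the whole table. How many of all genes held this middle position was not counted.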

How the data were processed

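The authors deposited linear-scale intensities, with a row per probe set and a column per array. The submitters' processing notes name RMA and affy; versions, settings and whether all arrays were summarised together are not given in the sources used here. Since log2 values had been planned for, log2 was taken first. Of 45141 rows, 4 without values and 104 controls were left out; 28895 of 45033 probe sets had 1 gene symbol, 551 several and 15587 none here, giving 17096 genes.

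Limma 3.58.1 in R 4.3.3 fitted luminal and basal means to the 4 adult arrays with eBayes (2 residual and 3.73 prior degrees of freedom), adjusted by Benjamini-Hochberg over all genes. The embryonic columns, tied at many probe sets, stayed out of this fit. In 4 simulated arrays of 17096 genes with 200 changed, the fit called 76% of the genes changed by 1.5 and 93% of those changed by 3 (log2), with 2 false calls among 171. Members, lists and tests were chosen with earlier results of these data known. Genes named were all members, all passing genes of the other Notch lists and up to 3 others per list in list order, the 5 nearest neighbours of a passing member, and fixed lineage and cell type markers; genes below background on every adult array were named as well in the marker lists. Alternatives covered arrays fitted, probe set choice, background filter, normalization, variance prior, array weights, fold minimum, a replicate block and each replicate left out. Dcn, Gata3, Lyz2, Cd74, Cd79a, Nrp1 and Nrarp were named after their values were seen. No protein table was used. Plots used matplotlib 3.10.9 (Python 3.11.15).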

Additional observations from a re-analysis of the deposited data

How the results depend on the processing

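Dll1 and Jag1 passed under all 13 and 14 alternatives run for them, with differences from -2.58 to -2.23 and from -1.83 to -1.54 and limma adjusted p from 3.75e-04 to 0.0234 and from 6.37e-04 to 0.0342. With the replicate number as a block (replicate block), 2 Notch genes, 3 other pathway genes and 1208 of all genes passed, and no named call changed; the labels give no shared animal or day, and deviations of same-numbered arrays correlated at 0.08 over all genes and 0.15 over the 7851 above background, with only 2 pairs. With no fold minimum 10 other pathway genes and 2879 of all genes passed, and with 1.5-fold 8 and 2603. Leaving out each replicate gave 1 to 5 other pathway genes and 519 to 1443 of all genes, the 519 without luminal replicate 1; a lone array was assumed to vary like the other group. The Notch genes that passed numbered 2 under every other setting and 3 without basal replicate 2. Differences that changed sign were all small: Dll4 ran from -0.15 to 0.02, Notch2 from -0.25 to 0.03 and Notch4 from -0.47 to 0.05 with a replicate left out, and a dimmer Notch4 probe set gave 0.02. The fit of all 7 arrays gave 939 genes in all. Low signal limits Dll4, Notch4 and luminal Dll1, which lay below background.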
